A study of Homo sapiens with 12 samples.

Results

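Fibronectin, the fibrillins, the fibulins and the matricellular glycoproteins are secreted proteins that assemble, decorate or modulate the extracellular matrix, and 10 genes that encode them were followed by name: FN1, FBN1, FBN2, FBLN1, FBLN5, EFEMP1, EFEMP2, TNC, POSTN and SPARC. All 10 were found among the 32152 genes listed, each as 1 protein-coding entry. They were read in 12 RNA-seq libraries of 2 human lines of triple-negative breast cancer, Hs-578T and MDA-MB-231, each with 2 libraries of parental cells, 2 labelled ERK5-ko and 2 labelled MEK5DD. The labels name no animal, drug or ligand, and all groups carry the mutations of their own tumor line. ERK5-ko cells were made by CRISPR/Cas9 with guides against exons of MAPK7, the gene of ERK5, and were taken forward as clones: in MDA-MB-231 they are 1 surviving clone, and in Hs-578T the text used here does not say which clone was sequenced. MEK5 phosphorylates ERK5, and MEK5DD is a version of it that is always active. How the MEK5DD cells were made is not given in the sources used here. The 2 libraries of a group are consecutive passages, 29 and 30 (parental), 7 and 8 (ERK5-ko) and 10 and 11 (MEK5DD) in MDA-MB-231, and 83 and 84 (parental) and 8 and 9 (both engineered groups) in Hs-578T. P-values therefore measure the spread between passages of a culture. The study made the ERK5-ko cells from cells of a higher passage number than the ERK5-ko libraries carry. Their numbers are therefore not on the scale of the parental ones. In each comparison with parental cells, passage and label cannot be told apart, nor, for ERK5-ko, clone and label.

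Fibronectin is laid down outside cells as fibrils that integrins pull into shape, and it serves as a scaffold for other matrix proteins. Fibrillins form microfibrils on which elastin is deposited and which hold latent TGF-beta complexes, and fibulins link microfibrils, elastin and basement membranes. Matricellular proteins such as tenascin-C, periostin and SPARC bear little load themselves and alter how cells adhere to the matrix. In breast tumors fibroblasts are a main source of these proteins, and carcinoma cells with mesenchymal features make some of them too.

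Levels are given as RPKM, the reads on a gene per kilobase of its length and per 1000000 reads of the library, with totals of 20248162 to 27791195 reads. RNA of MAPK7 itself lay between 13.3 and 14.3 RPKM in parental MDA-MB-231 libraries and between 16.3 and 17.8 RPKM in those labelled ERK5-ko. In Hs-578T its highest parental library lay below the lowest one labelled ERK5-ko, with means of 15.0 against 18.0 RPKM. RNA of the targeted gene was therefore no lower where the label says ERK5-ko. By Western blot the study reported knockout of ERK5 protein in both lines, which RNA levels cannot check. The libraries are called by their label throughout, and directions refer to it. RNA of MAP2K5, the gene of MEK5, averaged 186 RPKM in MDA-MB-231 MEK5DD libraries against 13.2 RPKM in parental ones, and 22.5 against 15.8 RPKM in Hs-578T. ESR1 and PGR stayed at or below 0.325 RPKM as group means, while ERBB2 lay between 31.5 and 55.9 RPKM. The 4 leukocyte markers summed to at most 2.21 RPKM in any library. The 6 stromal fibroblast markers summed to between 2.28 and 15.6 RPKM in MDA-MB-231 and to between 1751 and 3051 RPKM in Hs-578T, with THY1 at 1420 RPKM in its parental cells.

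Promoter windows are printed for 3 members, because TNC showed the largest rise of the 10 with MEK5DD in both lines, because the ratio of reads between the lines was furthest from 1 for POSTN, and because FN1 gives the set its name. Each is the 250 bases before the RefSeq start of the gene on GRCh38.p14, on the minus strand and written 5′ to 3′, and capitals mark matches on either strand to TATAA, the AP-1 motif TGANTCA, the cAMP response element TGACGTCA or the GC box GGGCGG. The windows are chr9:115118158-115118407 for TNC, chr13:37598769-37599018 for POSTN and chr2:215436069-215436318 for FN1.
TNC: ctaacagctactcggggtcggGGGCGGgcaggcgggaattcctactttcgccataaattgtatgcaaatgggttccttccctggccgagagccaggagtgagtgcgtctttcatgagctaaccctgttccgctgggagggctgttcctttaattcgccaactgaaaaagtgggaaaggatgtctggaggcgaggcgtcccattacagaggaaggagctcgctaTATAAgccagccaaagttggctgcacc
POSTN: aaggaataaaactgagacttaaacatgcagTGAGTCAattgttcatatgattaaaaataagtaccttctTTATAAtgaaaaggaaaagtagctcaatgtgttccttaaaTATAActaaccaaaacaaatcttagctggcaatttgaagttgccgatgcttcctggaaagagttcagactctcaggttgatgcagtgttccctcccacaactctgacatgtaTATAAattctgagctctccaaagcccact
FN1: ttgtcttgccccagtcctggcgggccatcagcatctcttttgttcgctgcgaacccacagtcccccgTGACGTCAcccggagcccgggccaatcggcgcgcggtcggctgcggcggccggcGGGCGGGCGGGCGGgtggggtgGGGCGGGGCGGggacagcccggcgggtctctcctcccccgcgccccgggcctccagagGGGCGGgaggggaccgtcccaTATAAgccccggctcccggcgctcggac

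Each of these windows holds TATAA near its 3′ end, between 23 and 29 bases before the start. TATAA was present in 18.9% of the 35116 promoter windows of the same length, the GC box in 42.6%, the AP-1 motif in 6.57% and the cAMP response element in 1.65%. POSTN held 1 AP-1 match 220 to 214 bases before its start and no GC box, and its first TATAA overlaps its own reverse-strand match in the letters TTATAA. FN1 held 1 cAMP response element 183 to 176 bases before its start and 6 GC boxes, some of which overlap, and TNC held 1 GC box. Of the 9 members with an entry, the windows of SPARC and FBN1 matched none of these motifs. Such a match is a description of letters and was not tested as a site. The windows overlap the outermost transcripts that GENCODE 29 draws for these genes.

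Parental Hs-578T cells expressed 9 of the 10 genes at higher levels than parental MDA-MB-231 cells, and TNC at a lower level. FBN2, FBLN5 and POSTN reached the filter on low values (0.5 RPKM in at least 2 libraries) only through Hs-578T, so that their direction was set by the filter. Of the other 7, 6 passed the test as lower in MDA-MB-231 (adjusted p under 0.05 in limma over 13737 protein-coding genes), against 31.3% of all genes tested, and TNC passed as higher, against 46% of all genes. The 10 genes together took 2.01% to 2.91% of all reads in Hs-578T libraries and 0.0354% to 0.0783% in MDA-MB-231 libraries. In bulk RNA, a gene read in fewer cells and a gene read less in each cell cannot be told apart.

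**Figure D1:**
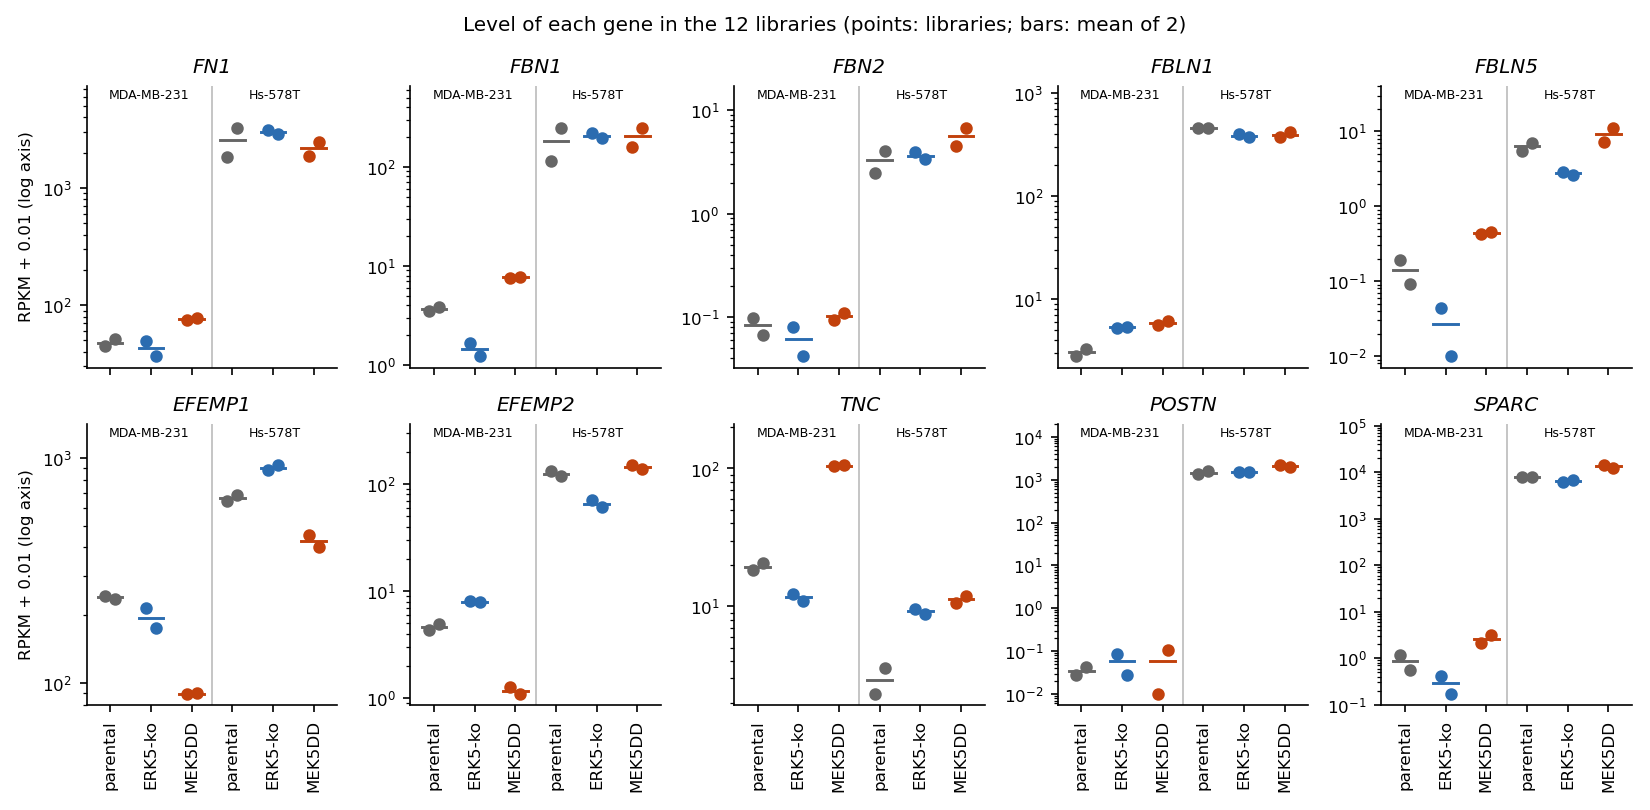
RPKM of each of the 10 genes in the 12 libraries, with a log axis offset by 0.01 so that libraries with no read can be drawn. Points are libraries, bars are means of 2, and the vertical line divides MDA-MB-231 from Hs-578T. SPARC lies at 8003 and 8027 RPKM in parental Hs-578T and at 1.17 and 0.538 RPKM in parental MDA-MB-231, and TNC is the panel in which the parental MDA-MB-231 libraries lie above those of Hs-578T.

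SPARC, a calcium-binding glycoprotein that regulates collagen assembly, was ranked 1 or 2 among all protein-coding genes by RPKM in every Hs-578T library, and between 10418 and 13099 in the MDA-MB-231 libraries. It stood on 183416 and 166834 reads in parental Hs-578T and on 29 and 15 reads in parental MDA-MB-231. Periostin, the product of POSTN and a ligand of αv integrins, stood on 70401 and 73539 reads in parental Hs-578T and on 1 and 2 reads in parental MDA-MB-231. The ratio of POSTN reads, MDA-MB-231 over Hs-578T, was 1.73e-05, with a counting interval from 3.57e-06 to 5.05e-05.

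The other members differed less between the lines. On the log2(RPKM + 0.5) scale the difference of parental MDA-MB-231 minus parental Hs-578T was -7.02 for FBLN1, -5.67 for FN1, -5.33 for FBN1 and -4.63 for EFEMP2. It was -1.46 for EFEMP1, the fibulin-3 gene, whose parental libraries held 244 and 236 RPKM in MDA-MB-231 and 643 and 683 RPKM in Hs-578T. TNC, the tenascin-C gene, ran the other way with 18.3 and 20.6 RPKM in MDA-MB-231 against 2.30 and 3.56 RPKM in Hs-578T, a difference of 2.56 (standard error 0.154, adjusted p = 2.46e-08). No member had parental libraries of the lines that overlapped, and for FBN2, FBLN5 and POSTN the direction was set by the filter. The share without overlap was not taken over all genes, so it is no result about the members. Of all genes, 46% passed as higher and 31.3% as lower in MDA-MB-231.

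The order of genes within a library depends on the length that divides the reads. The deposited values used a gene length that matches the mean length of the annotated transcripts, such as 1003 bases for SPARC, whose longest GENCODE 29 transcript has 3701 bases. By RPKM as deposited, the order of means in parental Hs-578T was SPARC (8015), FN1 (2562), POSTN (1453), EFEMP1 (663), FBLN1 (456), FBN1 (181), EFEMP2 (125), FBLN5 (6.27), FBN2 (3.28) and TNC (2.93). Per kilobase of the longest transcript, the means were 2172 for SPARC, 1113 for FN1, 983 for POSTN, 190 for EFEMP1 and 171 for FBLN1, in the same order. Further down the order changed, with EFEMP2 at 54.8 ahead of FBN1 at 51.5. In parental MDA-MB-231 EFEMP1 (240) was highest by RPKM as deposited, followed by FN1 (48.0) and TNC (19.4), and on the longest transcript these means were 68.7, 20.9 and 8.64. All 10 genes passed the filter of 0.5 RPKM in at least 2 libraries, but in the MDA-MB-231 libraries alone 7 would have, since FBN2, FBLN5 and POSTN stayed below 0.5 RPKM in every one of them.

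Against parental cells, more of these genes passed with MEK5DD than with ERK5-ko in MDA-MB-231, and so did more of all genes. Not every member shifted more with MEK5DD, as FBN1 changed by 0.97 with it and by -1.12 with ERK5-ko. In MDA-MB-231 MEK5DD libraries, 6 of the 10 passed as higher, namely FN1, FBN1, FBLN1, FBLN5, TNC and SPARC, against 17.5% of all genes, and EFEMP1 and EFEMP2 passed as lower, against 23.8%. With the fold limits of the study added (above 1.5 or below 0.5), 5 were called higher, against 7.64% of all genes, and 2 lower, against 6.31%. FBLN5 was not called at a fold of 1.46 on the log2(RPKM + 0.5) scale, though its ratio of reads was 3.27. The median log2 change over the members was 0.60, against -0.01 over all genes, and 0.75 with POSTN set at the ratio of its reads. With 1 library of either group left out, FN1 (0.55 to 0.76), FBN1 (0.91 to 1.02) and FBLN5 (0.43 to 0.67) no longer passed. Fewer of all genes passed in these fits as well.

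In Hs-578T MEK5DD libraries, FBN2, TNC, POSTN and SPARC passed as higher, against 6.44% of all genes, and EFEMP1 as lower, against 17%. By the fold limits 3 were called higher (FBN2, TNC and SPARC), against 2.9%, and 0 lower, against 1.49%. FBLN5, at 0.50, had a limma p of 0.0182 before adjustment and did not pass (adjusted p = 0.0688). The median log2 change was 0.37, against -0.08 over all genes. Without parental replicate 1 FBN2 and SPARC no longer passed, and fewer of all genes passed as well. Fitting the Hs-578T libraries alone left 2, TNC and EFEMP1. Over all genes that fit passed 267 as higher and 633 as lower, against 884 and 2329 in the fit of all 12 libraries.

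In the ERK5-ko libraries of MDA-MB-231, FBLN1 and EFEMP2 passed as higher, against 6.91% of all genes, and FBN1, TNC and SPARC as lower, against 10.4%. By the fold limits 2 were called higher, against 2.8%, and FBN1 alone lower, against 1.07%. The median log2 change was -0.23, both as fitted and with FBLN5 and POSTN set at the ratio of their reads, against -0.04 over all genes. With 1 library left out in turn, the change was 0.62 to 0.82 for FBLN1 and 0.66 to 0.82 for EFEMP2. It was -1.29 to -0.95 for FBN1, -0.80 to -0.64 for TNC and -1.12 to -0.43 for SPARC. FBN1 passed in none of these fits and TNC and SPARC not in all, and fewer of all genes passed as well.

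In Hs-578T libraries labelled ERK5-ko, EFEMP1 and TNC passed as higher, against 19.7% of all genes, and FBLN5 and EFEMP2 as lower, also against 19.7%. By the fold limits TNC was called higher, against 9.35%, and FBLN5 lower, against 3.27%. The median log2 change was 0.13, against 0.01 over all genes. Both kinds of engineered cells were compared with the same parental libraries in each line, so the comparisons are not independent of each other.

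**Figure D2:**
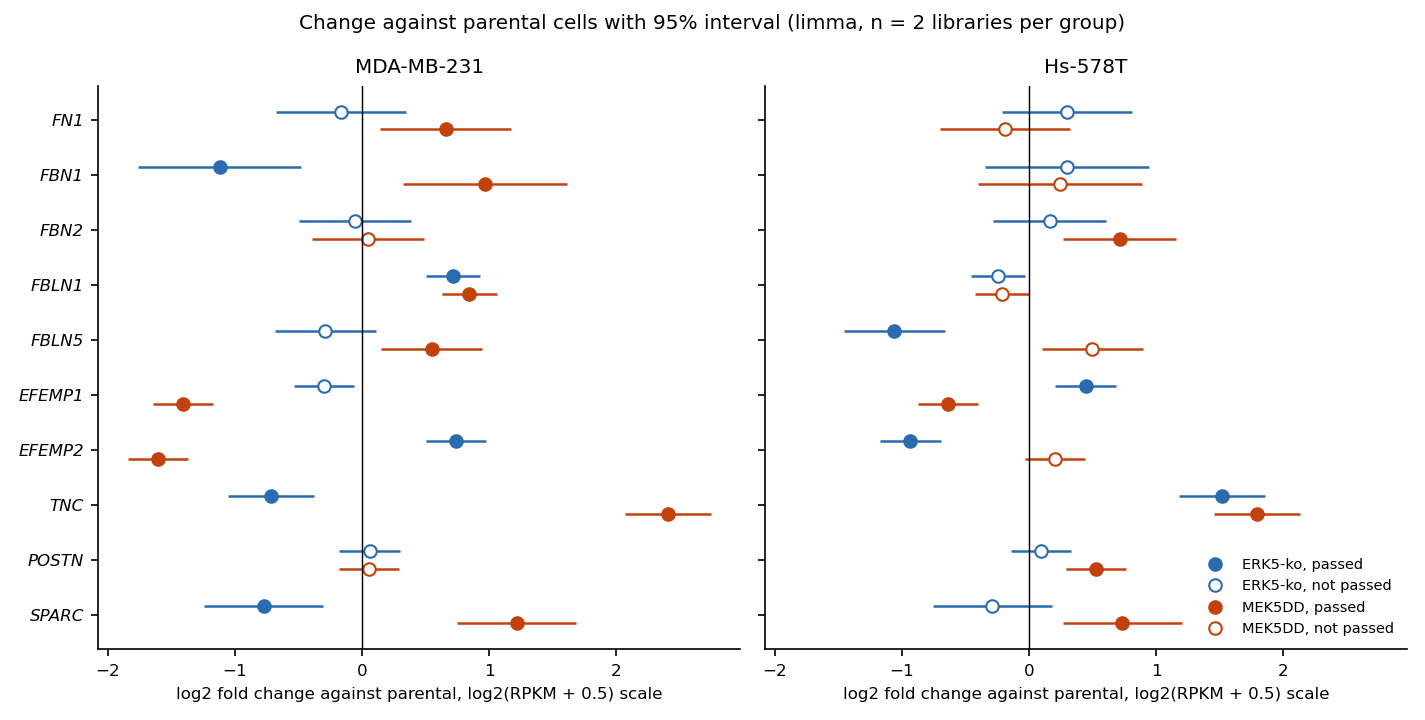
Log2 fold change of the 10 genes against parental cells in MDA-MB-231 (left) and Hs-578T (right), on the log2(RPKM + 0.5) scale, with 95% intervals from limma and 2 libraries per group. Filled points passed at an adjusted p under 0.05. TNC is at 2.41 and 1.79 with MEK5DD, and at -0.72 and 1.52 in libraries labelled ERK5-ko.

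FN1 encodes fibronectin and has its gene at chromosome 2, 215360440 to 215436172, on the minus strand of GRCh38. In MDA-MB-231 its RPKM was 44.4 and 51.6 in parental libraries, 49.5 and 36.8 in those labelled ERK5-ko, and 74.1 and 77.6 in MEK5DD libraries. The MEK5DD libraries lay above the other 4, and the ERK5-ko and parental libraries overlapped. FN1 rose by 0.66 on the log2 scale with MEK5DD (standard error 0.234, adjusted p = 0.0418), but it did not pass when any 1 of the 4 libraries was left out (adjusted p 0.0812 to 0.204). In the ERK5-ko libraries its log2 change was -0.17 (95% interval -0.68 to 0.35).

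In Hs-578T the FN1 level was 1847 and 3278 RPKM in parental libraries, 3149 and 2904 RPKM in those labelled ERK5-ko and 1877 and 2483 RPKM in MEK5DD libraries. The parental libraries spanned a ratio of 1.77 between them, and every neighbouring pair of groups in the order of means overlapped. FN1 did not pass in Hs-578T in either comparison with parental cells, with a log2 change of 0.30 (95% interval -0.22 to 0.81) for ERK5-ko and of -0.19 (95% interval -0.70 to 0.32) for MEK5DD. Both directions turned when 1 library was left out. Without parental replicate 1 the ERK5-ko change was -0.12, and without parental replicate 2 it was 0.71 (adjusted p = 0.0144) and the MEK5DD change was 0.22.

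The 2 libraries with low FN1 were also low in long transcripts as a class. For each library, the slope of its log2 values, centred within the line, on the log2 length of the longest transcript was taken over 13706 tested genes. It was -0.113 in parental replicate 1 and -0.115 in MEK5DD replicate 1 of Hs-578T, and between 0.0440 and 0.0797 in the other Hs-578T libraries. In MDA-MB-231 it ran from -0.0498, in ERK5-ko replicate 2, to 0.0277. The same 2 Hs-578T libraries were lower in 1184 genes with transcripts of 8000 bases or more than in 2476 genes under 2000 bases, by a median log2 difference of -0.38 and -0.35. FN1, FBN1, FBN2 and TNC have longest transcripts of 7641 to 11756 bases, and the part of this slope in their values was not tested beyond the fit with the slope removed.

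**Figure D3:**
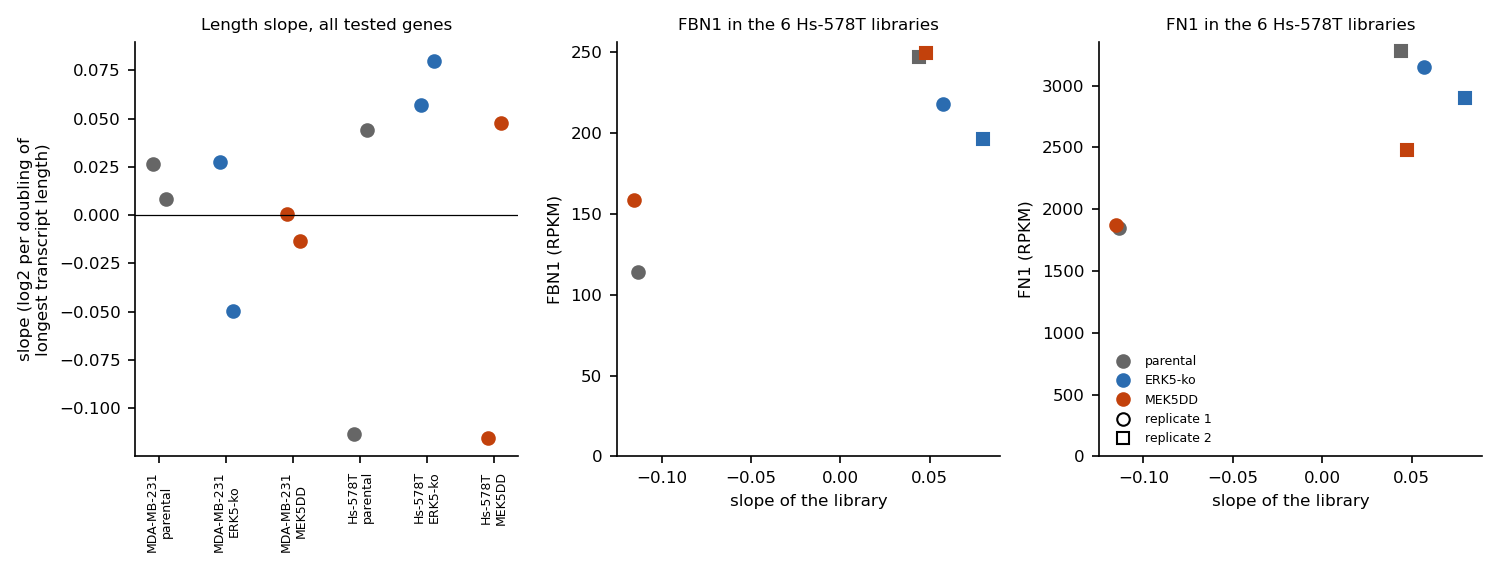
Slope of each library on transcript length, in log2 units per doubling (left), and the RPKM of FBN1 (middle) and FN1 (right) in the 6 Hs-578T libraries against that slope. Circles are replicate 1 and squares replicate 2 in the middle and right panels. Parental and MEK5DD replicate 1 of Hs-578T lie at -0.113 and -0.115, and hold the lowest FBN1, 114 and 159 RPKM, of the 6.

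FBN1 encodes fibrillin-1, the main fibrillin of adult microfibrils, and lies at chromosome 15, 48408306 to 48645849, minus strand. Its RPKM in MDA-MB-231 was 3.54 and 3.87 in parental libraries, 1.67 and 1.22 in those labelled ERK5-ko and 7.60 and 7.81 in MEK5DD libraries. The 3 groups did not overlap, with the ERK5-ko libraries lowest and the MEK5DD libraries highest. FBN1 fell by 1.12 on the log2 scale in the ERK5-ko libraries (standard error 0.294, adjusted p = 0.0227) and rose by 0.97 with MEK5DD (adjusted p = 0.0207). Neither passed when any 1 library was left out, with adjusted p between 0.0603 and 0.155 for ERK5-ko and between 0.0665 and 0.0994 for MEK5DD.

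In Hs-578T FBN1 stood at 114 and 247 RPKM in parental libraries, 218 and 196 RPKM in those labelled ERK5-ko and 159 and 249 RPKM in MEK5DD libraries. All 3 groups overlapped, and the ratio of the parental replicates was 2.17. The log2 changes were 0.30 (95% interval -0.34 to 0.94) and 0.24 (95% interval -0.40 to 0.89), and neither passed. Without parental replicate 1 they were -0.26 and -0.31, and without parental replicate 2 they were 0.86 (adjusted p = 0.0115) and 0.80 (adjusted p = 0.0311). Without MEK5DD replicate 2 the change with MEK5DD was -0.08.

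FBN2 encodes fibrillin-2, which is best known from developing tissue, and lies at chromosome 5, 128257909 to 128659185, minus strand. In MDA-MB-231 it had between 4 and 14 reads in any library, and the ratios of reads against parental cells were 0.698 for ERK5-ko (95% counting interval 0.309 to 1.51) and 1.28 for MEK5DD (0.672 to 2.47). In Hs-578T its RPKM was 2.48 and 4.07 in parental libraries, 3.91 and 3.39 in those labelled ERK5-ko and 4.51 and 6.81 in MEK5DD libraries. The MEK5DD libraries were above the other groups. FBN2 rose by 0.71 with MEK5DD (standard error 0.202, adjusted p = 0.0259) and passed under 7 of 10 other settings (adjusted p up to 0.170). The change was 0.40 (adjusted p = 0.167) without parental replicate 1 and 0.44 (adjusted p = 0.13) without MEK5DD replicate 2. FBN2 shares 56 exon bases with SLC27A6 on the other strand, on a kit that keeps strand.

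FBLN1 encodes fibulin-1, which binds fibronectin and basement membrane proteins, and lies at chromosome 22, 45502238 to 45601135, plus strand. In MDA-MB-231 its RPKM was 2.79 and 3.27 in parental libraries, 5.25 and 5.34 in those labelled ERK5-ko and 5.54 and 6.13 in MEK5DD libraries. Both engineered groups lay above the parental libraries. FBLN1 rose by 0.72 in ERK5-ko libraries (standard error 0.0974, adjusted p = 0.000565) and by 0.85 with MEK5DD (adjusted p = 3.42e-05). In Hs-578T it was 460 and 452 RPKM in parental libraries, 400 and 369 RPKM in those labelled ERK5-ko and 374 and 415 RPKM in MEK5DD libraries, so that the parental pair was highest. Its changes there were -0.25 (adjusted p = 0.0646) and -0.21 (adjusted p = 0.142), and neither passed.

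FBLN5 encodes fibulin-5, an elastin-binding protein with an integrin-binding motif, and lies at chromosome 14, 91869412 to 91947987, minus strand. In Hs-578T its RPKM was 5.51 and 7.03 in parental libraries, 2.86 and 2.60 in those labelled ERK5-ko and 7.23 and 11.2 in MEK5DD libraries. The ERK5-ko libraries were lowest and the MEK5DD libraries highest, with no overlap. FBLN5 fell by 1.06 in the ERK5-ko libraries (standard error 0.181, adjusted p = 0.00086), while the change with MEK5DD, 0.50, did not pass (adjusted p = 0.0688), and without MEK5DD replicate 1 it was 0.80 (adjusted p = 0.00725).

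In MDA-MB-231 FBLN5 had few reads, 6 and 3 in parental libraries, 1 and 0 in those labelled ERK5-ko and 13 and 16 in MEK5DD libraries. The order of the groups was that seen in Hs-578T. The ratio of reads of ERK5-ko to parental was 0.123, with a counting interval from 0.0028 to 0.886, and that of MEK5DD to parental was 3.27, from 1.51 to 7.85. In limma the FBLN5 rise with MEK5DD had an adjusted p of 0.0301, which lay between 0.0503 and 0.186 when 1 of the 4 libraries was left out and was up to 0.119 under other settings, of which 7 of 10 passed.

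EFEMP1 encodes fibulin-3 and lies at chromosome 2, 55865967 to 55924139, minus strand. In MDA-MB-231 its RPKM was 244 and 236 in parental libraries, 215 and 176 in those labelled ERK5-ko and 89.5 and 90.2 in MEK5DD libraries. In Hs-578T the values were 643 and 683, 881 and 924, and 453 and 402 in the same order of groups. MEK5DD libraries were the lowest of each line. EFEMP1 fell by 1.41 with MEK5DD in MDA-MB-231 (standard error 0.108, adjusted p = 1.23e-06) and by 0.64 in Hs-578T (adjusted p = 0.00184). In libraries labelled ERK5-ko it rose by 0.45 in Hs-578T (adjusted p = 0.00708), which became an adjusted p of 0.0594 without ERK5-ko replicate 2. Its change in MDA-MB-231, -0.30, did not pass (adjusted p = 0.0777), and without ERK5-ko replicate 1 it was -0.45 (adjusted p = 0.043).

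EFEMP2 encodes fibulin-4, which brings lysyl oxidase to elastic fibres, and lies at chromosome 11, 65866441 to 65873592, minus strand. In MDA-MB-231 its RPKM was 4.30 and 4.87 in parental libraries, 8.04 and 7.91 in those labelled ERK5-ko and 1.25 and 1.08 in MEK5DD libraries. The ERK5-ko libraries were highest and the MEK5DD libraries lowest, with 30 reads in each of the latter. In Hs-578T it was 132 and 119 RPKM in parental libraries, 70.3 and 60.4 RPKM in those labelled ERK5-ko and 149 and 139 RPKM in MEK5DD libraries, so that the order of the groups was the reverse. EFEMP2 rose by 0.74 in ERK5-ko libraries of MDA-MB-231 (standard error 0.108, adjusted p = 0.000949) and fell by 0.93 in those of Hs-578T (adjusted p = 6.19e-05). With MEK5DD it fell by 1.61 in MDA-MB-231 (adjusted p = 4.48e-07), and in Hs-578T its change of 0.20 did not pass (adjusted p = 0.206).

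TNC encodes tenascin-C, a hexameric protein that counters adhesion to fibronectin and is sparse in most adult tissue, and lies at chromosome 9, 115019578 to 115118257, minus strand. In MDA-MB-231 its RPKM was 18.3 and 20.6 in parental libraries, 12.3 and 10.9 in those labelled ERK5-ko and 105 in each MEK5DD library. The 3 groups were apart from each other, with a ratio of 1.13 or less between replicates. TNC rose by 2.41 with MEK5DD (standard error 0.154, 95% interval 2.07 to 2.75, adjusted p = 2.91e-07), a fold of 5.31. It fell by 0.72 in libraries labelled ERK5-ko (adjusted p = 0.00824), which was 0.0841 without parental replicate 2 and 0.0758 without ERK5-ko replicate 2.

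In Hs-578T TNC stood at 2.30 and 3.56 RPKM in parental libraries, 9.51 and 8.84 RPKM in those labelled ERK5-ko and 10.5 and 11.9 RPKM in MEK5DD libraries. Both engineered groups lay above the parental libraries. TNC rose by 1.52 in ERK5-ko libraries (adjusted p = 2.35e-05) and by 1.79 with MEK5DD (adjusted p = 2.22e-05). The parental library that was lower, replicate 1, is that of the steep length slope, and without it the rises were 1.25 and 1.53. The RNA of TNC shares 129 exon bases with DEC1 on the other strand.

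POSTN, the gene of periostin, lies at chromosome 13, 37562583 to 37598844, minus strand. In Hs-578T its RPKM was 1351 and 1556 in parental libraries, 1546 and 1548 in those labelled ERK5-ko and 2149 and 2030 in MEK5DD libraries. The MEK5DD libraries were above the others, and the ERK5-ko and parental libraries overlapped. POSTN rose by 0.53 with MEK5DD (standard error 0.108, adjusted p = 0.00545), and it passed under 7 of 10 other settings, with an adjusted p of 0.114 in a fit of the Hs-578T libraries alone and of up to 0.177. In MDA-MB-231 between 0 and 6 reads were found in each library, so that no change with either label was detectable at this depth.

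SPARC lies at chromosome 5, 151661096 to 151687165, minus strand, and shares 381 exon bases with the antisense gene CLMAT3. In Hs-578T its RPKM was 8003 and 8027 in parental libraries, 6324 and 6791 in those labelled ERK5-ko and 14043 and 12659 in MEK5DD libraries. The 3 groups were apart, with MEK5DD highest. SPARC rose by 0.73 with MEK5DD (standard error 0.214, adjusted p = 0.0289), and passed under 6 of 10 other settings. With quantile scaling, which gives genes of the same rank the same value in each library, the change was 0 (adjusted p = 1), with SPARC at rank 2 in all 4 of these libraries. It did not pass without parental replicate 1 (0.0784), parental replicate 2 (0.0805) or MEK5DD replicate 1 (0.109). Its change in libraries labelled ERK5-ko was -0.29 (adjusted p = 0.305).

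In MDA-MB-231 SPARC had 29 and 15 reads in parental libraries, 9 and 4 in those labelled ERK5-ko and 51 and 86 in MEK5DD libraries. The groups followed the order of Hs-578T without overlap. The ratio of reads to parental was 0.326 in ERK5-ko libraries, with a counting interval from 0.161 to 0.617, and 3.16 in MEK5DD libraries, from 2.23 to 4.54. On the log2 scale SPARC rose by 1.22 with MEK5DD (adjusted p = 0.000768) and fell by 0.77 in ERK5-ko libraries (adjusted p = 0.0285). The latter passed under 5 of 10 other settings (adjusted p up to 0.124), and it was -0.43 (adjusted p = 0.267) without parental replicate 1 and -0.55 (adjusted p = 0.229) without ERK5-ko replicate 2.

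In Hs-578T the 6 fibroblast markers were lower in the libraries labelled ERK5-ko. They summed to between 2640 and 2902 RPKM in parental libraries, 1751 to 1876 RPKM in those labelled ERK5-ko and 2684 to 3051 RPKM in MEK5DD libraries. The sums of parental and MEK5DD libraries overlapped. All 6 had a lower mean with ERK5-ko than in parental libraries, from 396 to 92.2 RPKM for DCN and from 1420 to 1190 RPKM for THY1. With MEK5DD the means of DCN (482), LUM, FAP and PDGFRA were above the parental ones and those of THY1 (1261) and PDGFRB below, and none of the 6 was at 0. In MDA-MB-231 the sum was 15.2 to 15.6 RPKM in parental, 12.3 to 12.5 RPKM in ERK5-ko and 2.28 to 2.32 RPKM in MEK5DD libraries, and most of it was PDGFRB. THY1 and DCN averaged 0 RPKM in the ERK5-ko libraries. In the parental ones they averaged 0.0325 and 0.0157 RPKM, with the lower library of each at 0. The part of these markers in the values of the 10 genes was not tested.

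The libraries labelled ERK5-ko and those of MEK5DD were also compared directly. In Hs-578T both groups carry passage numbers 8 and 9, but whether these count from the same point is not given. ERK5-ko cells are clones, so clone and label cannot be told apart here either. In MDA-MB-231, EFEMP1 and EFEMP2 passed as higher in ERK5-ko, against 27.1% of all genes, and FN1, FBN1, FBLN5, TNC and SPARC as lower, against 27.9%. The differences, as ERK5-ko minus MEK5DD on the log2 scale, were 2.35 for EFEMP2, 1.11 for EFEMP1, -3.13 for TNC, -2.09 for FBN1 and -1.99 for SPARC. FN1 differed by -0.82 (adjusted p = 0.0106), which was 0.106 without ERK5-ko replicate 2 and 0.0584 without MEK5DD replicate 2. FBLN5 stood on 1 read against 29, a ratio of 0.0376 with a counting interval from 0.00092 to 0.227. The median over the members was -0.47, against -0.02 over all genes.

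In Hs-578T, EFEMP1 passed as higher on the ERK5-ko side than on the MEK5DD side, against 30.7% of all genes, and FBN2, FBLN5, EFEMP2, POSTN and SPARC as lower, against 19.2%. FBLN5 differed by -1.56 (adjusted p = 3.5e-05), EFEMP2 by -1.14, EFEMP1 by 1.08 and SPARC by -1.02. With quantile scaling the SPARC difference was 0.32 (adjusted p = 0.3), and SPARC held rank 1 or 2 in each of these libraries. POSTN differed by -0.43 (adjusted p = 0.00642) and passed under 7 of 10 other settings, with an adjusted p of 0.348 and a difference of -0.16 under quantile scaling. FBN2 differed by -0.55 (adjusted p = 0.0414), passed under 6 of 10 other settings (adjusted p up to 0.168) and did not pass without ERK5-ko replicate 1 (0.0769), ERK5-ko replicate 2 (0.201) or MEK5DD replicate 2 (0.281). TNC and FN1 did not pass, with -0.28 (95% interval -0.61 to 0.06) and 0.49 (95% interval -0.03 to 1.0), and the median over the members was -0.35, against 0.09 over all genes.

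Whether a change differed between the lines was tested as the difference of the log2 changes. RNA of MAP2K5 averaged 186 RPKM with MEK5DD against 13.2 RPKM in parental MDA-MB-231, and 22.5 against 15.8 RPKM in Hs-578T. For MEK5DD, cell line and MAP2K5 level therefore cannot be told apart. For ERK5-ko, 6 of the 10 members passed, against 39.8% of all genes, and for MEK5DD 5 members passed, against 39.6%. FBLN5 in the former count and POSTN in the latter were kept by the filter only through Hs-578T. Few reads and the offset of 0.5 RPKM limit their change in MDA-MB-231, so neither pass shows that the lines differ. TNC had the widest difference for ERK5-ko, with a fall of 0.72 in MDA-MB-231 and a rise of 1.52 in Hs-578T. EFEMP2 had the widest difference for MEK5DD, -1.81 (95% interval -2.15 to -1.47). FBLN5 passed for ERK5-ko at 0.77 (adjusted p = 0.033), and with voom on the recovered reads, 1 against 9 of them in MDA-MB-231, it was -1.12 (adjusted p = 0.391). EFEMP1 fell with MEK5DD in both lines and fell further in MDA-MB-231, by a difference of -0.78 (adjusted p = 0.00201). SPARC did not pass for either label, with differences of -0.48 (95% interval -1.15 to 0.18) for ERK5-ko and 0.48 (95% interval -0.18 to 1.15) for MEK5DD. Without parental replicate 2 of MDA-MB-231 the former was -0.83 (adjusted p = 0.04), and without parental replicate 1 the latter was 0.83 (adjusted p = 0.0398).

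FN1, FBN1 and FBN2 did not pass for MEK5DD, with differences of 0.85 (adjusted p = 0.0623), 0.72 (adjusted p = 0.191) and -0.67 (adjusted p = 0.0864), and each passed without 1 or more Hs-578T libraries. Without parental replicate 1 of Hs-578T the difference was 1.26 for FN1 and 1.28 for FBN1. FN1 also passed without MEK5DD replicate 2 of Hs-578T, at 1.05. FBN2 passed without parental replicate 2, at -0.97, and without MEK5DD replicate 1, at -0.94. With the length slope removed all 3 passed, FN1 at 0.88 (adjusted p = 0.00968), FBN1 at 0.77 (adjusted p = 0.0498) and FBN2 at -0.62 (adjusted p = 0.0225), and with quantile scaling FN1 (adjusted p = 0.0412) and FBN2 (adjusted p = 0.0453) passed. For ERK5-ko, FN1 differed by -0.46 (adjusted p = 0.287), and by -0.88 (adjusted p = 0.0166) without parental replicate 2 of Hs-578T.

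**Figure D4:**
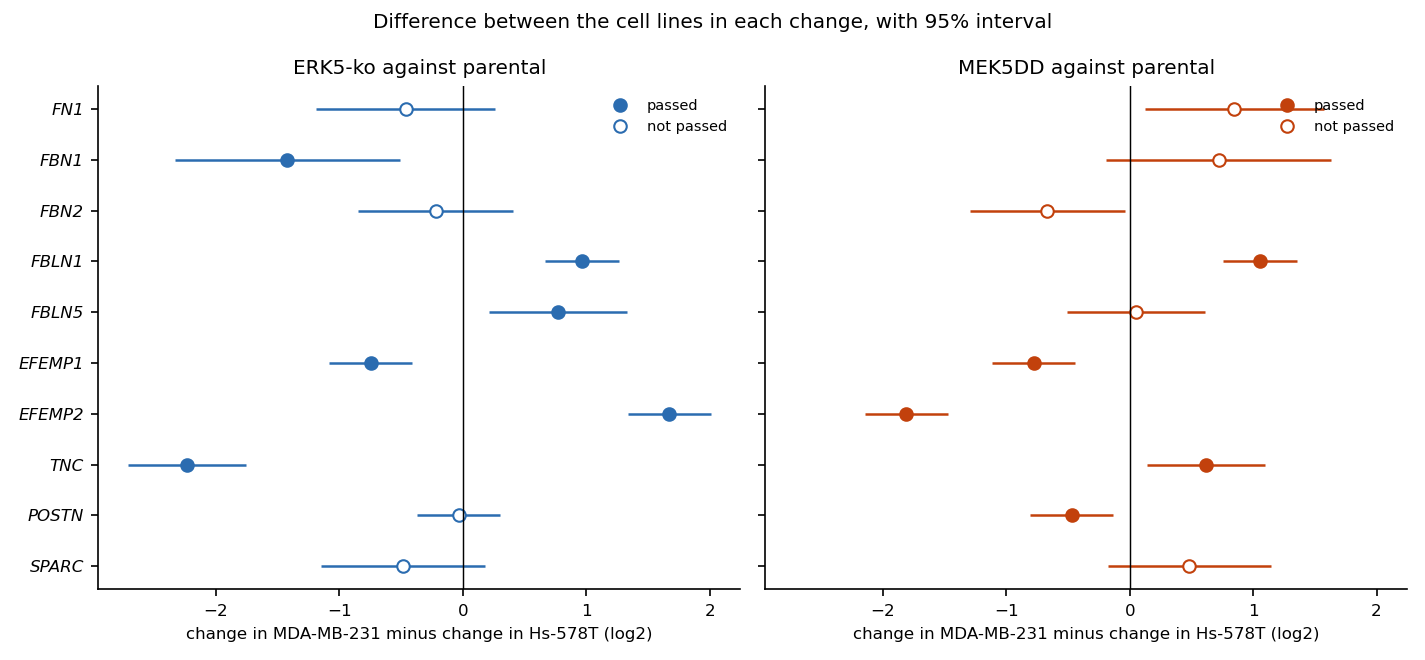
Change against parental cells in MDA-MB-231 minus that in Hs-578T, in log2 units, for libraries labelled ERK5-ko (left) and MEK5DD (right), with 95% intervals. Filled points passed at an adjusted p under 0.05. EFEMP2 is at 1.67 for ERK5-ko and at -1.81 for MEK5DD, and TNC is at -2.24 and 0.61.

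Receptors and assembly partners of fibronectin were read from a list of 12 genes, of which 10 were tested. In MDA-MB-231 MEK5DD libraries 1 passed as higher and 5 as lower, against 17.5% and 23.8% of all genes. The median was -0.32, or -0.38 with genes at or under 3 reads set at their read ratio, against -0.01 over all genes. ITGB3 (-1.50), ITGAV (-1.0) and ITGB5 (-0.86), subunits of RGD-binding integrins, fell and ITGB8 (0.61) rose. In Hs-578T MEK5DD libraries 1 passed in each direction, ITGB8 (0.76) as higher and ITGB3 (-0.65) as lower, against 6.44% and 17% of all genes. In libraries labelled ERK5-ko 2 passed as higher and 1 as lower in MDA-MB-231, against 6.91% and 10.4% of all genes, and 1 and 3 in Hs-578T, against 19.7% each way. ITGA5, which pairs with beta-1 as the classical fibronectin receptor, fell by 0.35 in the former and rose by 0.38 in the latter.

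Partners in microfibrils and elastic fibres were read from a list of 20, of which 19 were listed and 16 tested. In Hs-578T libraries labelled ERK5-ko 2 passed as higher and 7 as lower, against 19.7% of all genes each way, with a median of -0.33 against 0.01 over all genes. MFAP5 (3.33), a microfibril glycoprotein, rose, and MFAP4 (-2.03), LOXL1 (-2.09), which cross-links elastin, and FBLN7 (-1.35) fell. MFAP4 overlaps the end of MAPK7 on the other strand. In Hs-578T MEK5DD libraries 4 passed as higher, among them MFAP4 (2.76) and LTBP2 (0.77), and 0 as lower, against 6.44% and 17% of all genes, with a median of 0.20 against -0.08. In MDA-MB-231 MEK5DD libraries 3 passed as higher and 6 as lower, against 17.5% and 23.8%, with LTBP3 (-2.98) and MFAP2 (-2.27) falling and LOX (0.99) rising. In its ERK5-ko libraries 3 passed in each direction, against 6.91% and 10.4%, with LTBP3 (0.71) rising and LTBP1 (-1.11) falling.

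Other matricellular genes were read from a list of 22 symbols, older and newer names together, of which 17 were listed and 13 tested. THBS2, the gene of thrombospondin-2, rose by 3.21 in the ERK5-ko libraries of MDA-MB-231 and fell by 2.33 with MEK5DD, from a parental mean of 2.19 RPKM. In those ERK5-ko libraries 4 of the list passed as higher and 0 as lower, against 6.91% and 10.4% of all genes. With MEK5DD 5 passed as higher, among them SPOCK1 (1.77) and CTGF (1.01), and 3 as lower, against 17.5% and 23.8%. The median with MEK5DD was 0.37, or 0.97 with genes at or under 3 reads set at their read ratio, against -0.01 over all genes. In Hs-578T libraries labelled ERK5-ko 3 passed as higher and 4 as lower, against 19.7% each way, with CTGF (1.23) and SPP1 (1.14) rising and WISP2 (-1.94) and THBS2 (-1.28) falling. In Hs-578T MEK5DD libraries 1 passed as higher and 2 as lower, against 6.44% and 17%.

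Genes whose pattern was most like that of a member were sought by Pearson's r over the 12 libraries after centring each line, and points of a group share their label. TNC was closest to GAB2 (0.975), MTSS1 (0.967) and FH (0.963). FBN1 was closest to NRP2 (0.979), COL6A3 (0.973) and PAPPA (0.970), and EFEMP2 to ASL (0.990). FBLN5 was closest to MKNK2 (0.982), EFEMP1 to OSGEPL1 (0.975), FN1 to ATN1 (0.968), FBN2 to UNC5B (0.965), SPARC to DNAJB5 (0.961) and POSTN to CDH18 (0.922). No member was among the 3 closest genes of another. These values are the highest of 13737 genes for each member and are given as a description.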

How the data were processed

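Polyadenylated RNA was measured in 12 libraries. The authors deposited RPKM values, reads per kilobase of gene and per 1000000 reads, on GRCh38. The submitters' processing notes name bcl2fastq, Trimmomatic 0.32, TopHat2 2.1.1, R 3.3.1 and DESeq2 1.12.4, and the counting tool is not given in the sources used here. The library kit keeps strand, and whether the counting used it is not given there. Samples were grouped by line and label. The length behind the values equals the mean length of the transcripts in GENCODE 29 for 99.1% of the 27628 genes with the same identifier (within 1 base), so levels between genes depend on it.

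Protein-coding genes with at least 0.5 RPKM in at least 2 libraries (13737) were tested. Using limma 3.58.1 (R 4.3.3), a model of 6 group means over the 12 libraries was applied to log2(RPKM + 0.5), with a variance trend and 6 residual degrees of freedom, and P values were adjusted by Benjamini-Hochberg within each of 9 comparisons. Fold changes on this scale understate the change of low genes. A gene passed at an adjusted p under 0.05 and was called with a fold above 1.5 or below 0.5 in addition. An exact two-sided permutation test of 2 against 2 libraries cannot go below p = 0.333, so none was used.

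Whole reads were recovered from the values, because 1 read has a fixed RPKM for a given gene length and library total. Of 32152 genes, 32151 came out whole in all libraries (within 0.001 reads), against 0 of 500 when totals were 1% off. Totals were 20248162 to 27791195 reads, of which 92.0% to 94.5% lay on listed genes. Below 50 reads in a group, ratios of reads are given with exact 95% binomial intervals. These and the floor of 3 reads cover counting error only. The fit was tested on simulated data. Figures were drawn with Python 3.11.15 and matplotlib 3.10.9.

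The members, the lists and the tests were chosen with earlier results of these data known. The text names the 10 members in every comparison, MAPK7 and MAP2K5, at most 4 passed genes per partner list and comparison, and the genes closest in pattern to a member, of which 1 is not reported here. Alternatives changed the pseudocount, the filter, the scaling, the libraries and gene types in the fit, and left out each library in turn. After seeing the data, voom on the recovered reads and removal of the slope on transcript length were added. Promoter windows are from RefSeq, with entries for 9 of the 10 members. EFEMP1 has none. Values of experiments other than RNA-seq were not used here.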

Additional observations from a re-analysis of the deposited data

Results flagged for a closer look

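Results in which the change against parental cells differed between the lines by a test of the difference are given as MDA-MB-231 minus Hs-578T, on the log2 scale, from limma. For libraries labelled ERK5-ko, TNC differed by -2.24 (adjusted p = 2.17e-05), EFEMP2 by 1.67 (adjusted p = 1.44e-05), FBN1 by -1.42 (adjusted p = 0.0188), FBLN1 by 0.96 (adjusted p = 0.000279), FBLN5 by 0.77 (adjusted p = 0.033) and EFEMP1 by -0.75 (adjusted p = 0.00272). FBLN5 was kept by the filter only through Hs-578T. Its ratio of reads in MDA-MB-231 was 0.123 (counting interval 0.0028 to 0.886), against a fold of 0.48 in Hs-578T. TNC and EFEMP2 passed with opposite signs in the lines, TNC falling in MDA-MB-231 and rising in Hs-578T, EFEMP2 the other way. FBN1 had adjusted p between 0.052 and 0.0758 without parental replicate 2 or ERK5-ko replicate 2 of MDA-MB-231 or either ERK5-ko library of Hs-578T. FBLN5, which stood on 1 read in the ERK5-ko libraries of MDA-MB-231, passed in 2 of the 8 fits that left out a library and had adjusted p of up to 0.117 in the others.

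For MEK5DD, EFEMP2 differed by -1.81 (adjusted p = 6.01e-06), FBLN1 by 1.06 (adjusted p = 0.000128), EFEMP1 by -0.78 (adjusted p = 0.00201), TNC by 0.61 (adjusted p = 0.0428) and POSTN by -0.47 (adjusted p = 0.0298). RNA of MAP2K5 was raised further by MEK5DD in MDA-MB-231 than in Hs-578T, so cell line and MAP2K5 level cannot be told apart in these differences. POSTN was kept by the filter only through Hs-578T, and the offset of 0.5 RPKM held its change in MDA-MB-231 at 0.06. Its ratio of reads there was 2.03 (counting interval 0.433 to 12.5), against a fold of 1.44 in Hs-578T. Its pass therefore does not show that the lines differ. TNC passed in 2 of the 8 fits that left out a library, with adjusted p of up to 0.145, and the 2 were those without parental replicate 1 or MEK5DD replicate 2 of Hs-578T. POSTN passed in 3 of 8, with adjusted p of up to 0.131, and its difference sets Hs-578T libraries with 70401 to 99254 reads against MDA-MB-231 libraries with 0 to 6 reads.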

How the results depend on the processing

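Of 90 results for the members, 56 passed, and 15 of these were lost when some library was left out. The number of members that passed fell from 5 to 3 for ERK5-ko in MDA-MB-231 with no filter on low values. Over all genes, 949 higher and 1430 lower of 13737 became 898 and 1327 of 17665. For MEK5DD in Hs-578T it fell from 5 to 2 with a pseudocount of 0.1, to 3 with no filter and to 2 with the libraries of the line alone. Over all genes, 884 higher and 2329 lower became, in that order, 817 and 2246, 897 and 2286, and 267 and 633. For the difference between the lines with MEK5DD it went from 5 to 3 with a pseudocount of 0.1, to 3 with voom on recovered reads and to 8 with the length slope removed. Over all genes, 2931 higher and 2507 lower became, in that order, 2815 and 2419, 2692 and 2273, and 3320 and 2801. Counts over all genes also moved with 1 library left out, and the ranges of members below are not set against them. With 1 library left out, a lone library being assumed to vary like the other groups, the number was 2 to 5 for ERK5-ko and 5 to 5 for MEK5DD in MDA-MB-231, 3 to 6 and 3 to 5 in Hs-578T, 6 to 7 and 5 to 6 for ERK5-ko against MEK5DD in these lines, 10 to 10 between parental lines, and 4 to 6 and 3 to 6 for the differences between lines with ERK5-ko and MEK5DD.

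Among results that had passed, 2 turned direction, SPARC for ERK5-ko against MEK5DD in Hs-578T with quantile scaling and FBLN5 for the difference between lines with ERK5-ko with voom. The other directions that turned were of results that had not passed. With quantile scaling FBN2 was 0.0301 for ERK5-ko in MDA-MB-231, while SPARC of Hs-578T was 0.32 for ERK5-ko and 0.32 for ERK5-ko against MEK5DD, where FBN1 was -0.0303 and FBLN1 0.0495. With median-ratio scaling the latter FBN1 value was -0.0637, and the FBLN5 difference between lines with MEK5DD was -0.0617, or -0.14 with a pseudocount of 1. With the length slope removed FBN1 for ERK5-ko against MEK5DD was -0.12 and FBN2 for ERK5-ko was -0.0091, both in Hs-578T, and the FBN2 difference between lines with ERK5-ko was 0.000798. With voom POSTN was -0.0326 with MEK5DD in MDA-MB-231, and the differences between lines with ERK5-ko were 0.44 for POSTN (0.12 with a pseudocount of 0.1) and -1.12 for FBLN5. The causes were not tested.

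With 1 library left out, FN1 ranged from -0.38 to 0.0466 for ERK5-ko in MDA-MB-231, and from -0.12 to 0.71 for ERK5-ko and -0.60 to 0.22 for MEK5DD in Hs-578T. In Hs-578T FBN1 ranged from -0.26 to 0.86, -0.31 to 0.80 and, for ERK5-ko against MEK5DD, -0.27 to 0.38, FBN2 for ERK5-ko from -0.14 to 0.47, FBLN1 for ERK5-ko against MEK5DD from -0.11 to 0.0410 and POSTN for ERK5-ko from -0.00824 to 0.20. In MDA-MB-231 POSTN ranged from -0.0195 to 0.14 for ERK5-ko, -0.0693 to 0.18 for MEK5DD and -0.12 to 0.13 between them. The difference between lines ranged from -0.53 to 0.0881 for FBN2 and -0.14 to 0.0680 for POSTN with ERK5-ko, and from -0.25 to 0.35 for FBLN5 with MEK5DD.

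Replicate numbers repeat across groups, but only as passages in order. Deviations of same-numbered libraries correlated across genes at r of 0.107 to 0.541, and with 2 numbers a group this is a hint from the data, so the numbers were not taken as pairs. A replicate block raised the results that passed from 56 to 61 by adding 5: FN1 (adjusted p = 0.0291) and FBN2 (0.0470) for the difference between lines with MEK5DD, FBLN1 for ERK5-ko (0.0351) and FBLN5 for MEK5DD (0.0365) in Hs-578T, and EFEMP1 for ERK5-ko in MDA-MB-231 (0.0455).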
